A study of Mus musculus with 18 samples.

Results

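Colon of mice that lack the genes Lao1 and Il4i1 was compared with colon of wild-type mice, all drinking water. The comparison used the 3 libraries named DKO (Lao1-/- Il4i1-/-) and the 3 named WT by their column names in a count table of 18 libraries, so 6 of 18. Every mouse of the series was a male C57BL/6J animal, 8 weeks old, bred germ-free in isolators. DKO and WT mice of this comparison received sterile water. Another genotype was LAO1KO (Lao1-/-). Other mice of each genotype were given 2.5% dextran sulfate sodium (DSS, a polymer that injures the colon lining) for 24 hours. Values of these other libraries were set beside those of the 6 where needed. The other libraries also entered the main edgeR fit, so they shaped its filter, scaling and estimate of spread. How the alleles were made, how many founders each line came from, and whether the groups were littermates is not given in the sources used here. Each group holds 3 libraries, which the design text calls biological replicates. The permutation p-values rest on the compared libraries alone. The main edgeR p-values rest on the spread between replicate libraries, estimated over all 18.

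The products of both genes are L-amino acid oxidases, flavin enzymes that turn amino acids into keto acids and release hydrogen peroxide and ammonia. IL4I1 prefers aromatic amino acids and is secreted by myeloid cells and B cells, where it restrains T cells and yields ligands of the aryl hydrocarbon receptor. LAO1 is known in mice as an enzyme of milk that limits bacteria through peroxide. The comparison addresses how colon lacking both genes differs from wild-type colon without microbes or injury.

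Total counts were 27556517 to 31018967 in the DKO libraries and 29491418 to 33176322 in the WT libraries. Of 45777 listed genes, 18848 passed the filter on low counts and were tested. Levels are given in CPM, a gene's counts relative to the scaled total of its library, and compare a gene between libraries and not different genes with each other. Of the defining markers of colon, the colonocyte gene Car1 had 8410 CPM on average in DKO colon and 6380 CPM in WT colon, and the goblet cell mucin Muc2 had 3850 CPM in DKO colon and 5420 CPM in WT colon. The colonocyte water channel Aqp8 averaged 0.225 CPM in DKO colon and 13.4 CPM in WT colon, where library B had 39.1 CPM. Markers of other tissues were detected in part. Of 3 stomach and pancreas markers, Cela1 averaged 28.3 CPM in DKO colon and 50.6 CPM in WT colon, Prss2 had no count in the 6 libraries and Gkn1 had at most 0.0956 CPM. Of 3 striated muscle markers, Ckm averaged 22.4 CPM in DKO colon and 27.3 CPM in WT colon, Acta1 7.35 CPM in DKO colon and 10.3 CPM in WT colon, and Myh4 had no count. On the first principal component WT library B lay at 57.8, while the other WT libraries lay at 9.12 and 8.60 and the DKO libraries between -18.6 and -3.54. Of the list medians printed, those that turned sign without it or moved by more than 1.5 times are also given without it.

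Il4i1 and Il4i1b are overlapping gene records on chromosome 7 (GRCm38, 44836288 to 44840809 and 44816370 to 44840804) that share reads, so their counts were added. The sum was 0 counts in each of the 3 DKO libraries, against 57, 27 and 51 counts in WT libraries A, B and C. The groups did not overlap. Pooled over the group, WT colon had 1.29 CPM, at least 39.5-fold higher than the 3 counts that an observed 0 over the 3 DKO libraries allows. The difference of means was -1.27 CPM, with an exact two-sided permutation p of 0.1, the smallest that 3 against 3 libraries can give. Tested as separate records, Il4i1 and Il4i1b did not pass (edgeR adjusted p = 0.285 and 0.133). Lao1 (chromosome 4, 118961967 to 118968910) was close to 0 in every library: 9, 0 and 5 counts in DKO colon, against 0, 0 and 2 counts in WT colon. That difference did not pass (exact two-sided permutation p = 0.4), and colon RNA at this depth does not check the Lao1 deletion.

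Across all tested genes, 117 differed between DKO and WT colon at an adjusted p under 0.05 in edgeR's quasi-likelihood test, 70 of them higher in DKO and 47 lower. They are 0.621% of the genes tested, 0.371% for the higher and 0.249% for the lower, and 3263 genes had an unadjusted p under 0.05. Of the 117, 87 carry gene symbols and 30 are gene models or pseudogenes, and 67 differed by more than 2-fold. In 115 of the 117 the DKO and WT values did not overlap, while over all tested genes 11.6% lay entirely higher in DKO and 9.86% entirely lower. The median log2 fold change over all genes was 0.01. With DESeq2's size factors in place of TMM, 54 genes were higher and 52 lower. The count depended on single libraries: it was 46 without DKO library A, 28 without DKO library C, 30 without WT library A, 50 without WT library B and 395 without WT library C. With only the 6 compared libraries in the fit it was 28, of which 24 were among the 117. Of the genes named below, that fit lost the calls of Apoc2, Chst8, Whamm, Isg20, Aen, Tescl, Psg28, Psg26, Guca2b, Zfp69, Pla2g2f, Rps2-ps8, Rps2-ps10, Rps2-ps13, Npy4r, Abhd3, Osbpl1a, Cables1, Riok3, B2m, Gbp8, Mx2, Fut4, Hyou1, Fer1l6, Trim12a, Mapk1ip1 and Zfp772.

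**Figure D1:**
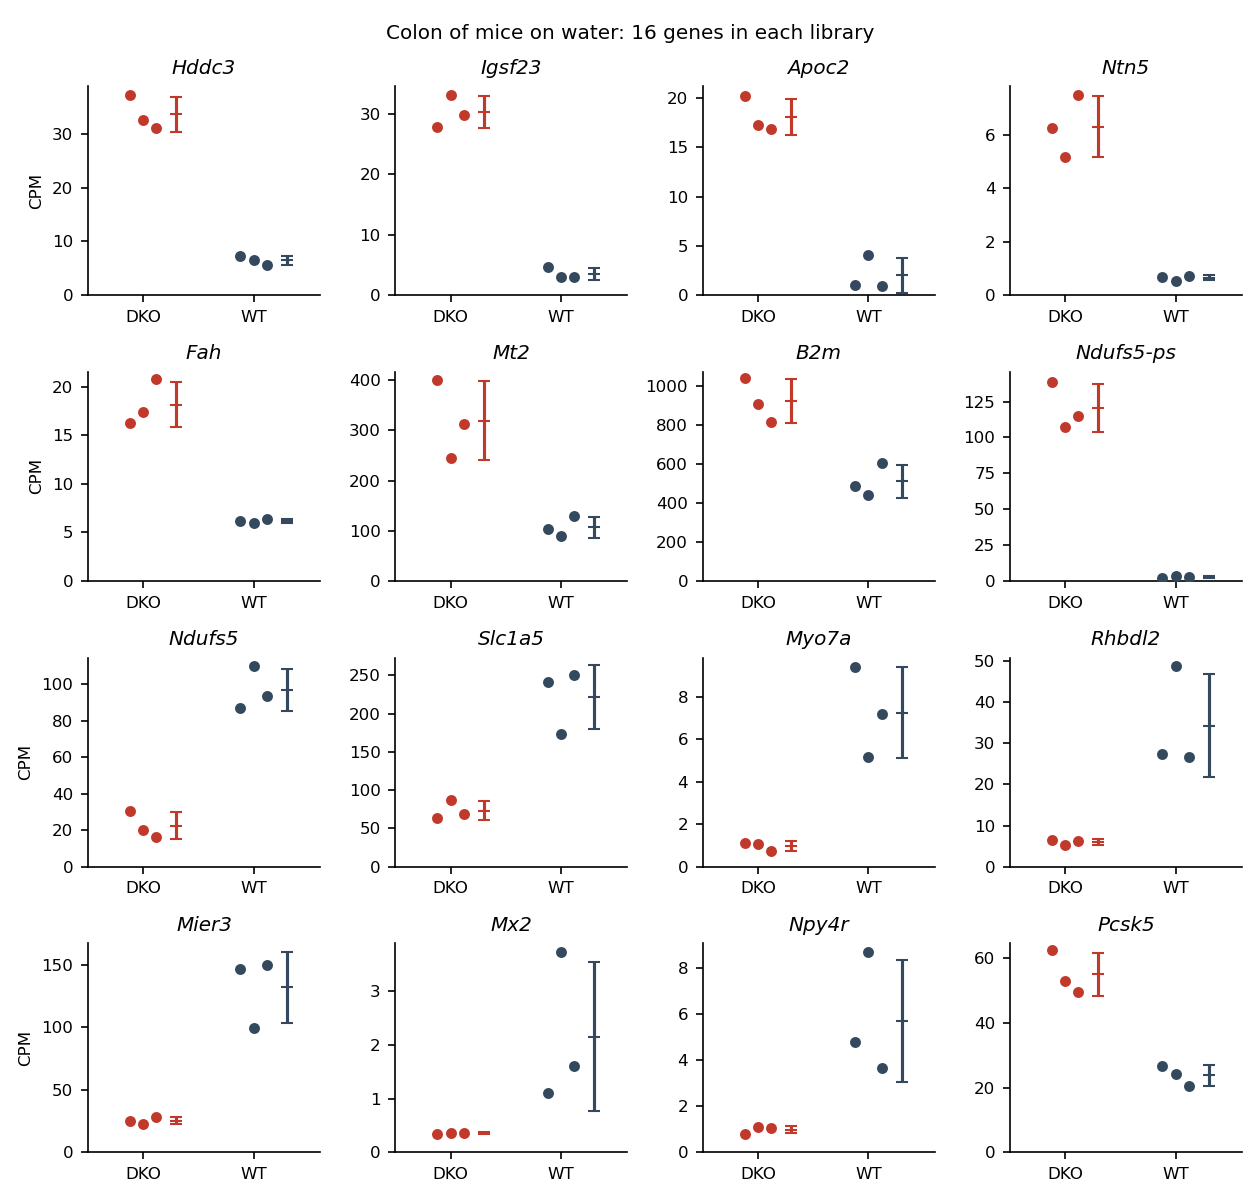
Levels in CPM (vertical axes, from 0) of 16 genes in each of the 3 DKO and 3 WT libraries on water; points are libraries and bars are mean ± SD. The DKO and WT points do not overlap in any panel, with Hddc3 at 31.0 to 37.3 CPM in DKO and 5.59 to 7.21 CPM in WT. Genes named by size of change were picked for this lack of overlap. Over all tested genes 11.6% lay entirely higher in DKO and 9.86% entirely lower.

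Chromosome 7, which carries Il4i1, held 36 of the 117 called genes among 1394 tested, or 2.58% against 0.621% over all genes. Of these, 21 were higher and 15 lower in DKO colon. They ran along the chromosome from Zfp772 near 7.2 Mb to Mapk1ip1 near 139.0 Mb. The densest stretches were not beside Il4i1: 15 of 206 tested genes were called in the first 20 Mb and 7 of 135 between 80 and 100 Mb, against 4 of 167 within 5 Mb of Il4i1. Chromosome 7 held 12.1% to 53.6% of the calls under the other settings tried, while 7.4% of the tested genes lie there.

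Among the enzymes and transporters of chromosome 7, Hddc3, which encodes the phosphohydrolase MESH1, gave the smallest p of any gene with a symbol that is no pseudogene. It had 37.3, 32.5 and 31.0 CPM in DKO libraries, against 7.21, 6.57 and 5.59 CPM in WT libraries. The groups lay far apart, with a log2 fold change of 2.38 ± 0.15 (SE; edgeR adjusted p = 9.88e-08). Slc1a5, the glutamine and neutral amino acid transporter ASCT2, had 64.0, 87.5 and 68.5 CPM in DKO libraries, against 241, 174 and 250 CPM in WT libraries. It was 3.03-fold lower in DKO colon (edgeR adjusted p = 0.000258). Fah, the last enzyme of tyrosine breakdown, had 16.3, 17.4 and 20.8 CPM in DKO libraries, against 6.13, 5.99 and 6.41 CPM in WT libraries. It was 2.94-fold higher in DKO colon (edgeR adjusted p = 0.00327). Apoc2, the cofactor of lipoprotein lipase, averaged 18.1 ± 1.84 CPM in DKO colon and 2.01 ± 1.80 CPM in WT colon (SD, n = 3 each; edgeR adjusted p = 0.0297). Chst8, a sulfotransferase of N-acetylgalactosamine, averaged 8.32 ± 1.35 CPM in DKO colon and 2.69 ± 0.874 CPM in WT colon (edgeR adjusted p = 0.00639), a call lost with only the 6 compared libraries in the fit. Apoc2 no longer passed without DKO library A, DKO library C or WT library A, and its log2 fold change was 2.83 to 4.20 over the 6 fits that each left out a library.

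Igsf23, an immunoglobulin superfamily member, had 27.8, 33.1 and 29.9 CPM in DKO libraries, against 4.68, 2.93 and 2.98 CPM in WT libraries. That is 8.57-fold higher in DKO colon (edgeR adjusted p = 3.46e-06). Ntn5, of the netrin guidance proteins, averaged 6.29 ± 1.15 CPM in DKO colon and 0.652 ± 0.0962 CPM in WT colon (edgeR adjusted p = 0.00495). Mill2, a relative of MHC class I, averaged 21.3 ± 1.25 CPM in DKO colon and 9.68 ± 1.43 CPM in WT colon (edgeR adjusted p = 0.00173). Ceacam20, an adhesion molecule of the epithelial brush border, fell to 70.8 ± 2.88 CPM in DKO colon, against 132 ± 17.0 CPM in WT colon (edgeR adjusted p = 0.0107), and lost its call without DKO library C or WT library A (log2 fold change -1.0 to -0.82). Myo7a, a myosin of actin-based protrusions, had 1.13, 1.07 and 0.729 CPM in DKO libraries, against 9.41, 5.16 and 7.18 CPM in WT libraries. It was 7.37-fold lower in DKO colon (edgeR adjusted p = 2.34e-05). Whamm, an activator of actin branching, was 1.78-fold higher in DKO colon (edgeR adjusted p = 0.00495). Mill2, Ceacam20 and Whamm were singled out after their values were seen.

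Isg20, an interferon-stimulated exonuclease, averaged 7.77 ± 1.52 CPM in DKO colon and 17.3 ± 4.05 CPM in WT colon (edgeR adjusted p = 0.00564), a call lost with only the 6 compared libraries in the fit. Its neighbour Aen, a nuclease induced by p53, averaged 11.5 ± 1.37 CPM in DKO colon and 25.3 ± 6.96 CPM in WT colon (edgeR adjusted p = 0.0323), but lost its call without any library other than WT library C (log2 fold change -1.28 to -0.91). The kallikrein protease Klk1b22, which lies close to Il4i1, had 322, 726 and 608 counts in DKO libraries, against 4, 0 and 3 counts in WT libraries. The ratio of pooled CPM was 270, with a 95% exact interval of 131 to 672 that covers counting error only (edgeR adjusted p = 0.0323). It missed the threshold without DKO library A, DKO library C, WT library A or WT library B, with a log2 fold change of 7.48 to 8.56 over all 6 such fits. The LAO1KO libraries had 2, 230 and 494 counts. Tescl and the pregnancy-specific glycoprotein genes Psg28 and Psg26 had no count in any WT library on water and 75, 65 and 60 counts over the DKO libraries, at least 28.5-, 24.7- and 22.8-fold higher than the 3 counts a 0 allows over the WT group. These 3 were singled out after their values were seen. Psg28 and Psg26 lost their calls without DKO library A, DKO library C, WT library A or WT library B, Psg26 also without DKO library B, and Tescl without DKO library C or WT library A. Reads of kallikrein, Psg, Zfp, Mt, Gbp, Trim12 and Rps2 family members can match a near-identical copy, so the levels of such genes are uncertain.

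The single Lao1 knockout on water differed from the double knockout at 15 genes (edgeR adjusted p under 0.05; 0.0796% of genes tested; 975 at an unadjusted p under 0.05), and all 15 lie on chromosome 7. That comparison uses the same 3 DKO libraries, and gave 9, 8 and 7 calls without DKO library A, B or C and 12, 9 and 11 without LAO1KO library A, B or C. Hddc3 averaged 33.6 ± 3.28 CPM in DKO, 6.32 ± 0.890 CPM in LAO1KO and 6.46 ± 0.818 CPM in WT colon. Slc1a5 averaged 73.3 ± 12.5 CPM in DKO, 224 ± 57.1 CPM in LAO1KO and 222 ± 41.4 CPM in WT colon. Igsf23 averaged 30.3 ± 2.66 CPM in DKO, 2.92 ± 0.508 CPM in LAO1KO and 3.53 ± 0.995 CPM in WT colon. LAO1KO against WT gave 10 calls in all (0.0531% of genes tested), 0 of them on chromosome 7. It gave 13, 6 and 5 calls without LAO1KO library A, B or C and 5, 17 and 118 without WT library A, B or C. Across the 36 called genes of chromosome 7, the median size of the log2 difference from WT was 1.42 in DKO and 0.28 in LAO1KO. These genes were chosen on the DKO values, which favours a larger median in DKO.

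**Figure D2:**
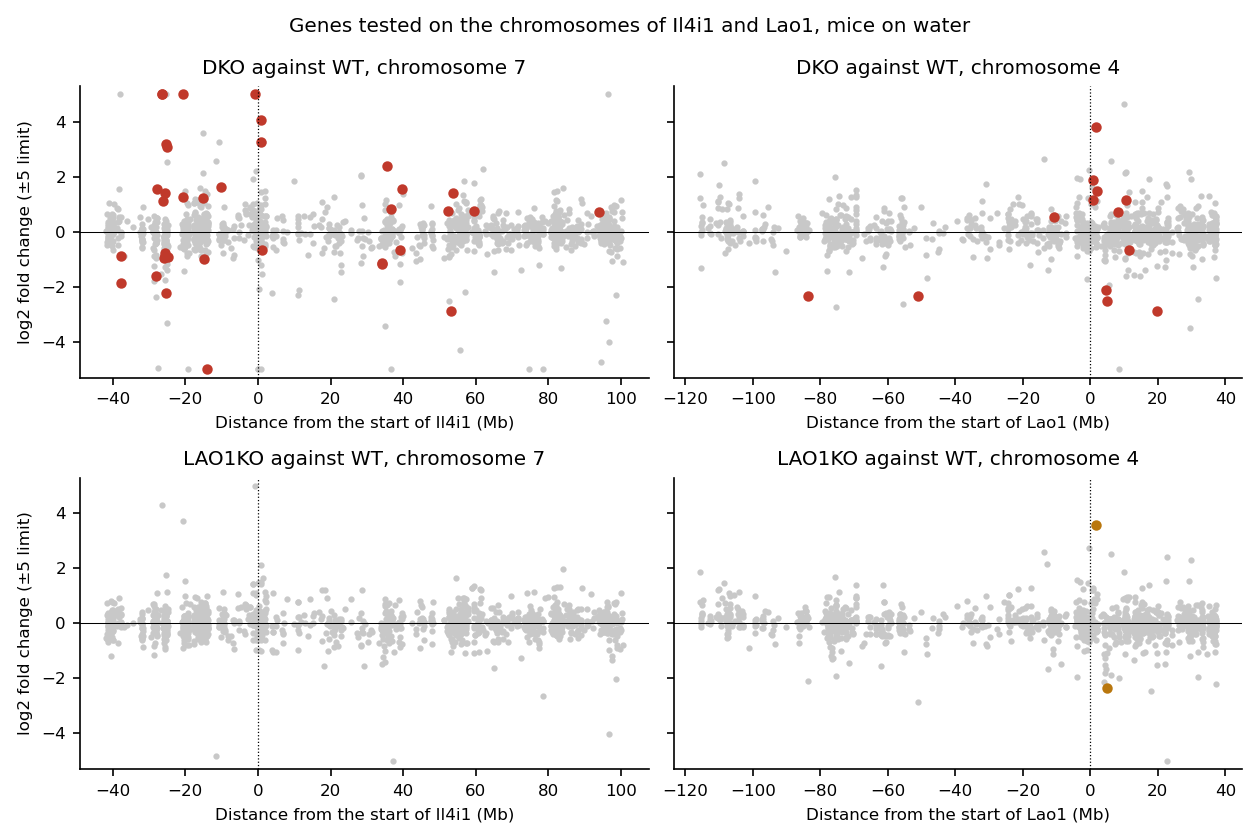
Log2 fold change (vertical axes, values past ±5 drawn at the limit) of every tested gene against its distance in Mb from the start of Il4i1 (left) and Lao1 (right); large coloured points are called genes, small grey points the others. The 36 called genes of chromosome 7 appear in DKO against WT (top) and none in LAO1KO against WT (bottom).

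Chromosome 4, which carries Lao1, held 13 called genes of 1159 tested, or 1.12%, of which 7 were higher and 6 lower in DKO colon. Its share of the calls was 11.1%, and 4.11% (without DKO library B) to 14.3% under the other settings, while 6.15% of the tested genes lie there. Within 5 Mb of Lao1 there were 6 calls among 145 tested genes, or 4.14%. Rhbdl2, a rhomboid protease that cuts membrane proteins, had 6.51, 5.26 and 6.34 CPM in DKO libraries, against 27.4, 48.7 and 26.6 CPM in WT libraries. It was 5.67-fold lower in DKO colon (edgeR adjusted p = 9.98e-05), and averaged 6.78 ± 2.87 CPM in LAO1KO colon. Guca2b, which encodes uroguanylin, the gut peptide that raises cyclic GMP in epithelium, had 34.0, 34.3 and 31.7 CPM in DKO libraries, against 18.9, 9.12 and 16.6 CPM in WT libraries. It was 2.25-fold higher in DKO colon (edgeR adjusted p = 0.0458), and lost its call without any library other than WT library C (log2 fold change 0.89 to 1.36). Zfp69, a zinc finger repressor, averaged 4.83 ± 1.31 CPM in DKO colon and 1.72 ± 0.285 CPM in WT colon (edgeR adjusted p = 0.0144). The gene model Gm29891, singled out after its values were seen, averaged 4.18 ± 0.435 CPM in DKO, 3.57 ± 1.12 CPM in LAO1KO and 0.293 ± 0.157 CPM in WT colon. Farther away, Pla2g2f, a secreted phospholipase, averaged 0.162 ± 0.130 CPM in DKO colon and 1.28 ± 0.863 CPM in WT colon (edgeR adjusted p = 0.0314). The calls of Zfp69 and Pla2g2f were lost without DKO library A, DKO library C or WT library A, and that of Pla2g2f also without WT library B. Over the 6 fits their log2 fold changes were 1.29 to 1.68 and -3.80 to -2.23.

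Ndufs5, also within 5 Mb of Lao1, has a near-identical copy on chromosome 16, and the copy gave the smallest p of all genes. Ndufs5 (chromosome 4, 123712710 to 123718186) encodes an accessory subunit of respiratory complex I. The processed pseudogene Ndufs5-ps (chromosome 16, 42955580 to 42956079) holds the GENCODE record BC002163 at 42955631 to 42955949. Over the 318 bases of the Ndufs5 coding sequence the copies were 99.4% identical, with no gap and 2 substitutions, T81C and A105G, counted from the A of the start codon as 1 and with the base of Ndufs5 first. The first 150 bases of each, from GENCODE transcripts on GRCm38, show in capitals the 2 positions that differ. Sequence outside the coding stretch was not compared.
Ndufs5: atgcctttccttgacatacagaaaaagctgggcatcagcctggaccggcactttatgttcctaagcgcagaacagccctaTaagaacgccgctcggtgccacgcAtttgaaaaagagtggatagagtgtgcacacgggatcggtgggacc
Ndufs5-ps: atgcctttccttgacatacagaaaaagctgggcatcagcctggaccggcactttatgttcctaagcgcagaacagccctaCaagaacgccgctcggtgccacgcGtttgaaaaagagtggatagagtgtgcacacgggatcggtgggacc

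Ndufs5 had 30.7, 20.2 and 16.3 CPM in DKO libraries, against 87.3, 110 and 93.6 CPM in WT libraries (4.33-fold lower; edgeR adjusted p = 0.00243). Ndufs5-ps had 139, 107 and 115 CPM in DKO libraries, against 2.23, 3.22 and 2.42 CPM in WT libraries (45.9-fold higher; edgeR adjusted p = 2.55e-10). The gene and its pseudogene thus moved in opposite directions, and in neither did the groups overlap. Their sum was 170, 127 and 131 CPM in DKO colon and averaged 143 ± 23.6 CPM there, against 99.7 ± 12.4 CPM in WT colon (exact two-sided permutation p = 0.1, the smallest possible). In LAO1KO colon Ndufs5 averaged 30.9 ± 16.3 CPM and Ndufs5-ps 152 ± 43.8 CPM. How reads that match both copies were assigned is not given in the sources used here, so neither level is certain. Pseudogenes of the ribosomal protein gene Rps2, singled out after their values were seen, were also called: Rps2-ps8, Rps2-ps10 and Rps2-ps13 were 11.7-, 2.71- and 3.04-fold lower in DKO colon (edgeR adjusted p = 0.0167, 0.0107 and 0.0203), while Rps2 itself averaged 688 CPM in DKO colon and 850 CPM in WT colon and did not pass (edgeR adjusted p = 0.432). All 3 pseudogenes lost their calls without DKO library C or WT library A, and Rps2-ps8 also without DKO library A. Their log2 fold changes were -4.09 to -3.18, -1.70 to -1.24 and -1.94 to -1.36.

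Away from chromosomes 4 and 7, 68 genes were called. Mier3, a transcriptional corepressor, had 25.4, 22.7 and 28.0 CPM in DKO libraries, against 147, 99.4 and 150 CPM in WT libraries. It was 5.21-fold lower in DKO colon (edgeR adjusted p = 2.44e-05) and averaged 24.6 ± 2.69 CPM in LAO1KO colon. Pcsk5, a proprotein convertase that cuts hormone and growth factor precursors, singled out after its values were seen, had 62.5, 52.9 and 49.7 CPM in DKO libraries, against 26.7, 24.2 and 20.4 CPM in WT libraries. It was 2.32-fold higher in DKO colon (edgeR adjusted p = 0.000144) and averaged 63.5 ± 4.54 CPM in LAO1KO colon. Both knockout lines are compared with the same WT libraries. Npy4r, the receptor of pancreatic polypeptide, had 0.822, 1.10 and 1.06 CPM in DKO libraries, against 4.82, 8.70 and 3.65 CPM in WT libraries (5.72-fold lower; edgeR adjusted p = 0.00459), a call lost with only the 6 compared libraries in the fit. Gm4864, a gene model on chromosome 12 singled out after its values were seen, had 0 counts in the 3 DKO libraries and 1105 in the 3 WT libraries, at least 323-fold higher in WT, and lost its call without any library other than WT library C (edgeR adjusted p = 0.0491 with all). On DSS it had 100, 51 and 0 counts in DKO libraries, against 88, 96 and 44 counts in WT libraries.

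A stretch of chromosome 18 of 2.3 Mb (GRCm38, 10644411 to 12941871), chosen after the values were seen, held 5 called genes among 16 tested, all 5 higher in DKO colon. Its ends were set by these 5 genes, so the count is the largest such a stretch can give. Of the 16 genes, 8 had a positive log2 fold change. Chromosome 18 as a whole held 8 called genes of 493 tested, or 1.62%, against 0.621% over all genes. Abhd3, an enzyme that cuts phospholipids, had 47.2, 53.9 and 48.5 CPM in DKO libraries, against 12.1, 3.19 and 14.4 CPM in WT libraries (5.02-fold higher; edgeR adjusted p = 0.0134). Osbpl1a, a sterol-binding protein of late endosomes, averaged 22.8 ± 1.44 CPM in DKO colon and 11.4 ± 1.10 CPM in WT colon (edgeR adjusted p = 0.000404). Ttc39c, Cables1 and the kinase gene Riok3 were 3.23-, 1.85- and 1.76-fold higher in DKO colon (edgeR adjusted p = 0.0323, 0.0224 and 0.0369). In LAO1KO colon the means were 34.4 ± 1.83 CPM for Abhd3 and 17.1 ± 1.5 CPM for Osbpl1a. The call of Abhd3 was lost without DKO library C or WT library A, and its log2 fold change was 1.89 to 2.69 over the 6 fits. Ttc39c lost its call without DKO library A, DKO library C, WT library A or WT library B (1.6 to 1.83). Cables1 and Riok3 lost theirs without DKO library C, WT library A or WT library B, Cables1 also without DKO library B and Riok3 without DKO library A (0.72 to 0.97 and 0.74 to 0.87).

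Genes of metal binding, antigen display and interferon responses were called in small numbers. Mt2, a zinc-binding metallothionein, had 401, 244 and 313 CPM in DKO libraries, against 103, 88.6 and 130 CPM in WT libraries. It was 2.98-fold higher in DKO colon (edgeR adjusted p = 0.011), and missed the threshold without DKO library A, DKO library C, WT library A or WT library B, with a log2 fold change of 1.38 to 1.73 over the 6 fits. Its neighbour Mt1 averaged 438 ± 82.7 CPM in DKO colon and 219 ± 25 CPM in WT colon and did not pass (edgeR adjusted p = 0.108). B2m, the light chain of MHC class I, had 1040, 908 and 815 CPM in DKO libraries, against 485, 439 and 604 CPM in WT libraries. It was 1.81-fold higher in DKO colon (edgeR adjusted p = 0.0212), and missed the threshold without DKO library A, WT library A or WT library B, with a log2 fold change of 0.74 to 0.99 over the 6 fits. Gbp8, an interferon-inducible GTPase, averaged 7.93 ± 2.98 CPM in DKO colon and 2.31 ± 1.03 CPM in WT colon (edgeR adjusted p = 0.0314), and lost its call without DKO library A, DKO library C, WT library A or WT library B (log2 fold change 1.42 to 2.09). Mx2, an antiviral GTPase, had 0.343, 0.368 and 0.364 CPM in DKO libraries, against 1.11, 3.73 and 1.62 CPM in WT libraries (5.94-fold lower; edgeR adjusted p = 0.0314). Mx2 missed the threshold without WT library B or any of the DKO libraries, with a log2 fold change of -2.88 to -1.94 over the 6 fits.

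Mt2 and B2m are shown with the 250 bases before their start (RefSeq, GRCm38.p6), because both also passed edgeR's test of the interaction with DSS, described below. That test gave 0 calls in most of the fits that left out a library. For Mt2 the letters TGCACNC and TGCGCNC, the core of the element that the zinc sensor MTF1 binds, were searched on both strands. There were 3 matches, in capitals, that begin 223, 128 and 50 bases before the start, the last on the other strand. Of 27025 promoters of this length, 21.3% held at least 1 such match. For B2m a pair of GAAA runs in the same direction, with 1 or 2 bases between them, the core of the interferon-stimulated response element, was searched the same way. There was 1 match, 139 bases before the start, and 5.43% of promoters held one. A match is a stretch of letters and not evidence of binding.
Mt2 (chr8:94172368-94172617, plus strand): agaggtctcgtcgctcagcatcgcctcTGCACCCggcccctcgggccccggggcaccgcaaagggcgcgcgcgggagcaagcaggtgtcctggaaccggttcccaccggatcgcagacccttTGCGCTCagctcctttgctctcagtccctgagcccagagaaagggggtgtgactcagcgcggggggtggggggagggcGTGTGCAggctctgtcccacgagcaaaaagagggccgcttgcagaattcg
B2m (chr2:122147437-122147686, plus strand): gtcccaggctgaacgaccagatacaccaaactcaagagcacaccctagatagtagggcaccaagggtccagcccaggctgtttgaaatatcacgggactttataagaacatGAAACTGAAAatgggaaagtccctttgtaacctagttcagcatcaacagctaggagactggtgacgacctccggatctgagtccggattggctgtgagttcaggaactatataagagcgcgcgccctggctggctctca

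The same genotypes on DSS gave 6 further libraries, which are not part of the group means compared on water. They did share the edgeR fit, and so its estimate of spread, with the water comparison. DKO library B on DSS had 12 counts of Il4i1 and Il4i1b and the other DKO libraries on DSS 0. The WT libraries on DSS had 42, 25 and 50 counts. On DSS 48 genes were called (edgeR adjusted p under 0.05; 0.255% of genes tested; 1826 at an unadjusted p under 0.05). Leaving out DKO library A gave 24 calls, DKO library C 28, DKO library B or WT library C 32, WT library A 33 and WT library B 40. Of the 117 genes called on water, 30 were called on DSS with the same sign, which is 25.6% of the water list and 62.5% of the DSS list, and none with the other sign. Of those 30, 15 lie on chromosome 7, 5 on chromosome 4 and 10 elsewhere. On chromosome 7, 34 of 36 genes kept their sign, and the median size of their log2 fold change was 1.42 on water and 1.07 on DSS. Off chromosomes 4 and 7, 34 of 68 kept their sign, with medians of 0.98 on water and 0.33 on DSS. All these genes were chosen on the water values, which favours larger medians on water. Hddc3 differed by 2.38 on water and 2.34 on DSS (log2), Igsf23 by 3.10 and 3.21, Fah by 1.56 and 1.52, Slc1a5 by -1.6 and -1.74, Myo7a by -2.88 and -2.84, and Mier3 by -2.38 and -1.98. All 6 passed on DSS.

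**Figure D3:**
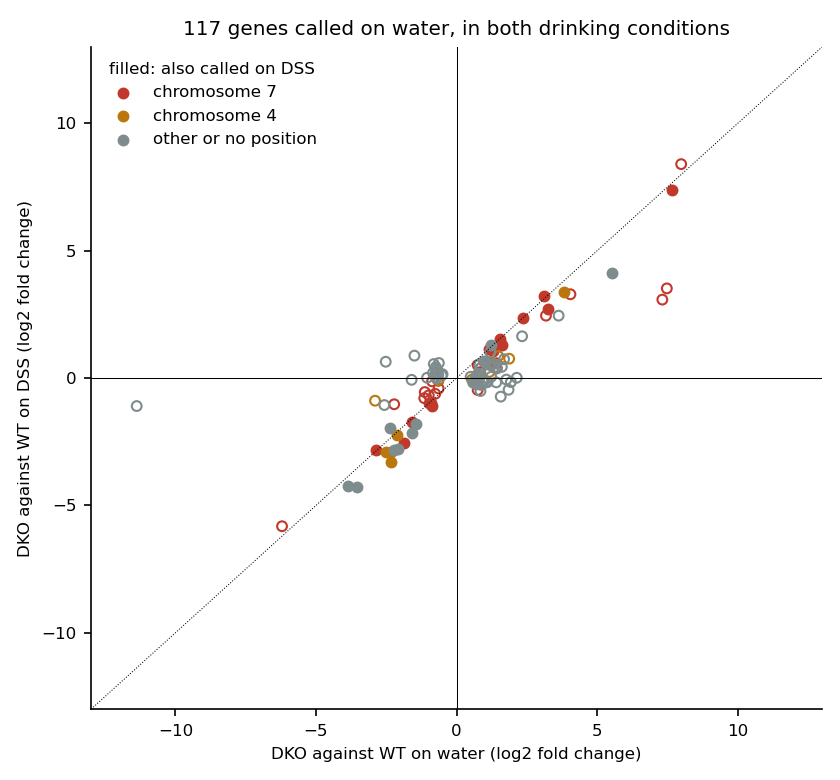
Log2 fold change of DKO against WT on water (horizontal) and on DSS (vertical) for the 117 genes called on water, coloured by chromosome, filled where also called on DSS; the dotted line marks equal values. On chromosome 7, 34 of 36 genes have the same sign on both axes, while 34 of the 68 genes off chromosomes 4 and 7 share their sign.

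To describe pathways and cell types, 58 gene lists were used, with 862 of their 920 distinct genes tested. Of the 862, 11 were called, or 1.28% against 0.621% over all genes, and 47 lists had no called member. Lists and members were chosen with earlier results of these data known, which can raise that share. The called members were Slc1a5, Fah, Ndufs5, Apoc2, Guca2b, Mt2, B2m, Gbp8 and Mx2, already described, with the fucosyltransferase gene Fut4 and the endoplasmic reticulum chaperone gene Hyou1. Fut4 averaged 16.8 ± 2.99 CPM in DKO colon and 27.6 ± 1.47 CPM in WT colon (edgeR adjusted p = 0.0419). Hyou1 averaged 48.5 ± 6.10 CPM in DKO colon and 81.1 ± 9.64 CPM in WT colon (edgeR adjusted p = 0.0455). Both lost their calls without DKO library C, WT library A or WT library B, Fut4 also without DKO library B and Hyou1 without DKO library A. Their log2 fold changes were -0.85 to -0.63 and -0.85 to -0.68.

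Of the 14 tested amino acid and amine oxidases, which include the deleted Il4i1, 0 were called (edgeR) and 5 had an unadjusted p under 0.05, with a median log2 fold change of -0.24 against 0.01 over all genes. Over all tested genes 17.3% had an unadjusted p under 0.05, 8.73% higher and 8.58% lower, and the counts given for lists stand beside that share. Without DKO library A or WT library C the median of the oxidases was -0.13. Loxl2, a lysyl oxidase that crosslinks matrix, averaged 20.3 ± 4.73 CPM in DKO colon and 42.3 ± 16.5 CPM in WT colon, and did not pass (edgeR adjusted p = 0.125). Hao2, a peroxisomal hydroxyacid oxidase, averaged 171 ± 19.4 CPM in DKO colon and 126 ± 9.32 CPM in WT colon, and did not pass (edgeR adjusted p = 0.171). Peroxide-removing enzymes had a median of -0.15, with 0 of 18 called and 2 at an unadjusted p under 0.05, and Nrf2 targets a median of -0.11, with 0 of 18 called and 3 at an unadjusted p under 0.05. The Nrf2 median was 0.04 without WT library B or with limma voom and -0.21 without DKO library A. Aryl hydrocarbon receptor targets had a median of 0.18, with 0 of 9 called and 1 at an unadjusted p under 0.05. That median was 0.00 without DKO library A, -0.04 without WT library A and -0.01 without WT library B. Of 15 enzymes of tryptophan and aromatic amino acid breakdown, Fah was called. Of 20 amino acid transporters, Slc1a5 was called and the list's median was -0.02, or 0.05 without WT library B.

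Lists of protein synthesis, growth and protein folding had medians below 0, with Hyou1 as their 1 called member. The 20 aminoacyl-tRNA synthetases had a median log2 fold change of -0.31, 19 of 20 negative, with 0 called and 10 at an unadjusted p under 0.05. Yars, which charges the tyrosine tRNA, averaged 27.0 ± 2.98 CPM in DKO colon and 51.7 ± 21.6 CPM in WT colon (edgeR adjusted p = 0.0606). The 17 tested genes of the ATF4 amino acid response had a median of -0.63, with 0 called and 7 at an unadjusted p under 0.05, and of -0.28 without WT library B. The 24 cell cycle and replication genes had a median of -0.51, 23 of 24 negative, with 0 called and 15 at an unadjusted p under 0.05. Ccne1, cyclin E1, averaged 3.25 ± 0.679 CPM in DKO colon and 6.37 ± 1.06 CPM in WT colon (edgeR adjusted p = 0.0809). Mcm5, a subunit of the replicative helicase, averaged 16.7 ± 1.42 CPM in DKO colon and 31.1 ± 8.92 CPM in WT colon (edgeR adjusted p = 0.118). The unfolded protein response had a median of -0.30 with Hyou1 called of 19, and heat shock genes a median of -0.39, with 0 of 14 called and 8 at an unadjusted p under 0.05. With DESeq2, which called 783 of all genes, 6 ATF4 response genes, 4 synthetases, 3 cell cycle genes and 4 heat shock genes were called lower. Without WT library C, where 395 of all genes were called, these numbers were 6, 4, 1 and 3.

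No gene of the fibroblast, smooth muscle or goblet cell lists was called, with smallest edgeR adjusted p-values of 0.0921, 0.202 and 0.109. The 17 fibroblast and matrix genes had a median log2 fold change of -0.94, 16 of 17 negative, with 0 called and 10 at an unadjusted p under 0.05. With DESeq2 7 of them were called lower, and without WT library C 3. The summed level of 4 defining fibroblast markers was 226 to 411 CPM in DKO libraries and 505 to 863 CPM in WT libraries. The 15 smooth muscle genes had a median of -0.66, or -0.38 without DKO library A. For 4 smooth muscle markers the sums were 1500 to 3700 CPM in DKO and 3740 to 5850 CPM in WT, and for 6 goblet cell markers 6580 to 7610 CPM in DKO and 9400 to 11600 CPM in WT. None of these sums overlapped between the groups and none of the markers was called. Over all tested genes 9.86% lay entirely lower in DKO colon and 11.6% entirely higher. For 4 enteroendocrine markers the sums did not overlap either, at 208 to 284 CPM in DKO and 172 to 204 CPM in WT. Sums of the other cell types overlapped. Fewer cells of a type and less RNA per cell cannot be told apart in whole tissue. Goblet cell genes had a median of -0.47, with 0 of 16 called and 9 lower at an unadjusted p under 0.05. Spink4, a goblet cell peptide, averaged 79.0 ± 21.5 CPM in DKO colon and 210 ± 51.9 CPM in WT colon (edgeR adjusted p = 0.109). The part of these layers in the calls above was not tested.

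Mitochondrially encoded mRNAs took 15.9%, 10.5% and 20.7% of counts in DKO libraries, against 7.65%, 6.89% and 9.08% in WT libraries. The groups did not overlap (15.7 ± 5.10% in DKO and 7.87 ± 1.11% in WT; exact two-sided permutation p = 0.1, the smallest possible). All 13 had positive log2 fold changes with a median of 1.12, and 0 were called, all 13 having an unadjusted p under 0.05 (smallest edgeR adjusted p = 0.0947). With DESeq2 6 of the 13 were called higher. On DSS the share was 19.5 ± 4.78% in DKO colon and 32.7 ± 10.6% in WT colon. With these mRNAs removed, 115 genes were called on water and 108 of them were among the 117.

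Immune lists were mixed. The 17 genes of MHC class I and the immunoproteasome had a median log2 fold change of 0.51, 16 of 17 positive, with B2m called and 11 higher at an unadjusted p under 0.05. H2-Q4 averaged 51.0 ± 12.9 CPM in DKO colon and 31.7 ± 2.11 CPM in WT colon (edgeR adjusted p = 0.0507). The median was 0.34 without WT library B. On DSS the same list had a median of -0.44. The 20 genes of gasdermins and inflammasomes had a median of 0.36, with 0 called (4 higher with DESeq2) and 9 higher at an unadjusted p under 0.05. Casp1, the inflammasome protease, averaged 212 ± 24.7 CPM in DKO colon and 134 ± 28.4 CPM in WT colon (edgeR adjusted p = 0.0976). The 22 type I interferon-stimulated genes had a median of -0.74 with Mx2 called, which became 0.31 without WT library B and 0.12 with limma voom. B cell genes had a median of 1.28 that became -1.15 without DKO library C, with 0 of 12 called and 0 at an unadjusted p under 0.05, and their 4 defining markers summed to 1.67 to 25.1 CPM in DKO and 2.07 to 6.27 CPM in WT. The 4 T cell markers summed to 4.52 to 8.74 CPM in DKO and 0.319 to 5.40 CPM in WT, which overlap.

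**Figure D4:**
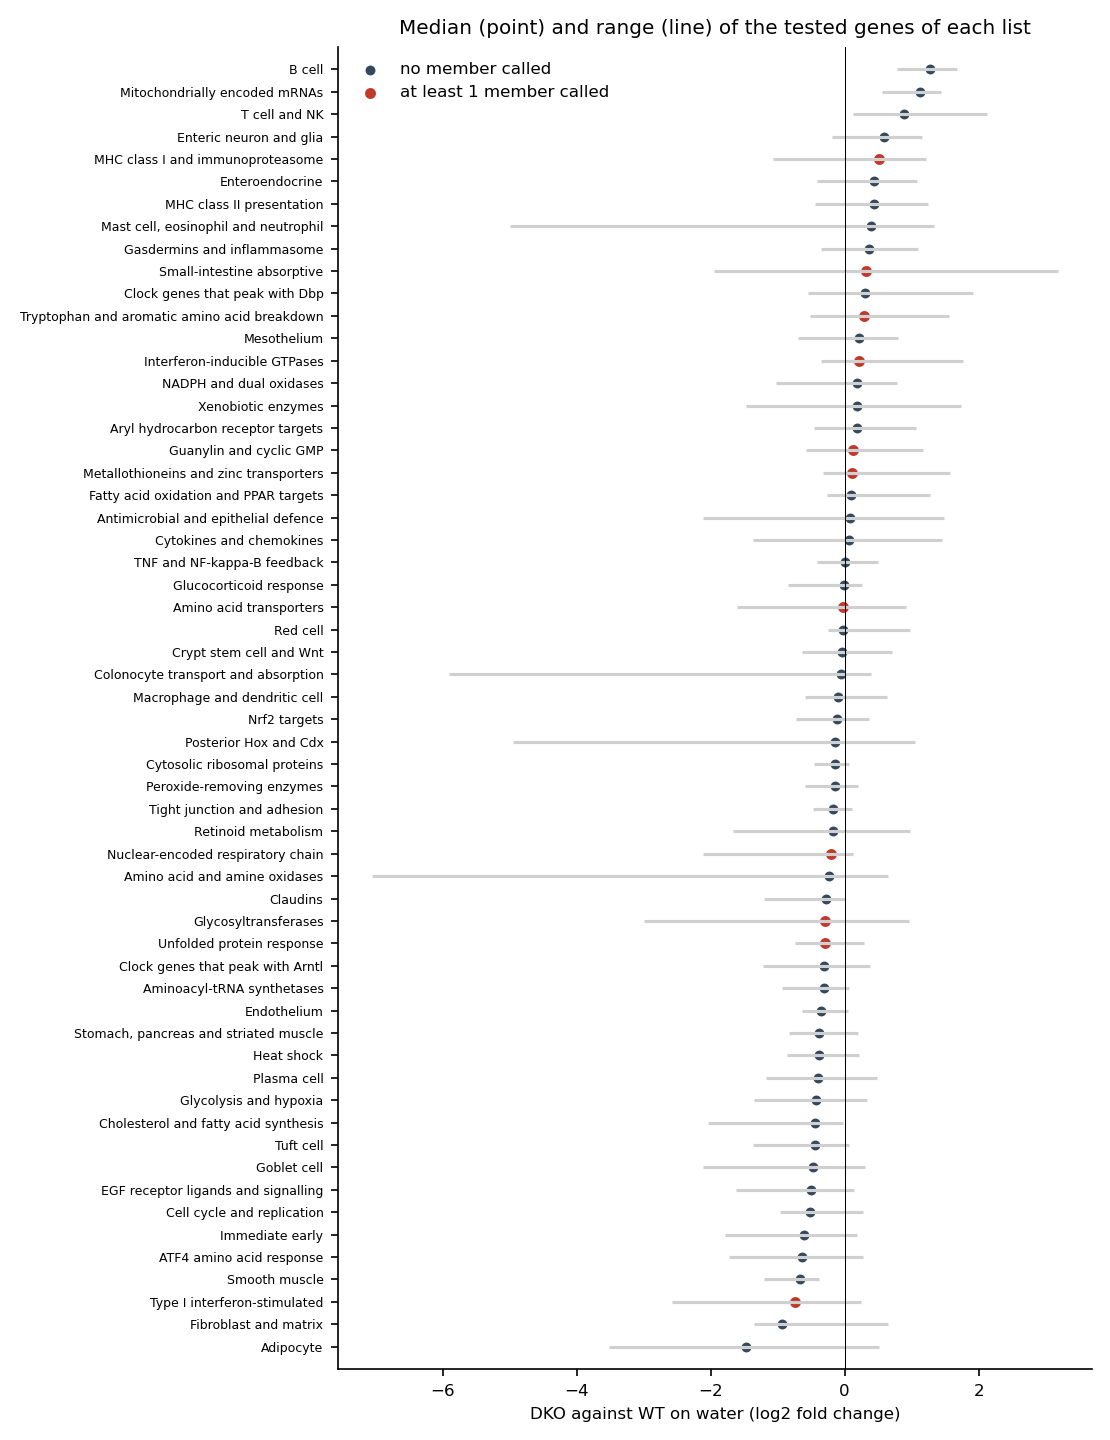
Median (point) and range (line) of the log2 fold change, DKO against WT on water, for the tested genes of each of the 58 lists, ordered by median; red points mark the 11 lists with a called member. Medians run from -1.47 for adipocyte genes to 1.28 for B cell genes; the first was -0.54 without WT library C and -0.43 with limma voom, the second -1.15 without DKO library C and -0.06 with limma voom.

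The difference between DKO and WT colon was itself different on DSS for 11 genes (edgeR test of the interaction, adjusted p under 0.05; 0.0584% of genes tested; 2903 at an unadjusted p under 0.05). Mt2 averaged 434 ± 28.8 CPM in DKO colon and 720 ± 292 CPM in WT colon on DSS, so its log2 difference was 1.57 on water and -0.73 on DSS. B2m averaged 672 ± 112 CPM in DKO colon and 953 ± 38.6 CPM in WT colon on DSS, with log2 differences of 0.85 on water and -0.51 on DSS. Arntl, a core activator of the circadian clock, averaged 26.9 ± 1.24 CPM in DKO colon and 41.4 ± 9.07 CPM in WT colon on water, and 19.7 ± 2.87 CPM in DKO colon and 9.19 ± 0.739 CPM in WT colon on DSS. A clock index took the average log2 level of genes in phase with Dbp, less that of genes in phase with Arntl. On water it was -0.306 to -0.0484 in DKO libraries and -1.3 to -0.681 in WT libraries. Those groups did not overlap (exact two-sided permutation p = 0.1, the smallest possible). On DSS it was 0.397 to 0.669 in DKO libraries and 1.19 to 1.57 in WT libraries. No gene of either clock list was called on water. The part of collection time was not tested. Npy4r, low in DKO colon on water, averaged 1.85 ± 0.285 CPM in DKO colon and 1.16 ± 0.642 CPM in WT colon on DSS. The number of such genes was 0 in 9 of the 12 fits that each left out a library, namely without DKO water library A or C, WT water library A or B, any DKO DSS library, or WT DSS library A or C. It was 19 without DKO water library B, 70 without WT DSS library B and 148 without WT water library C.

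**Figure D5:**
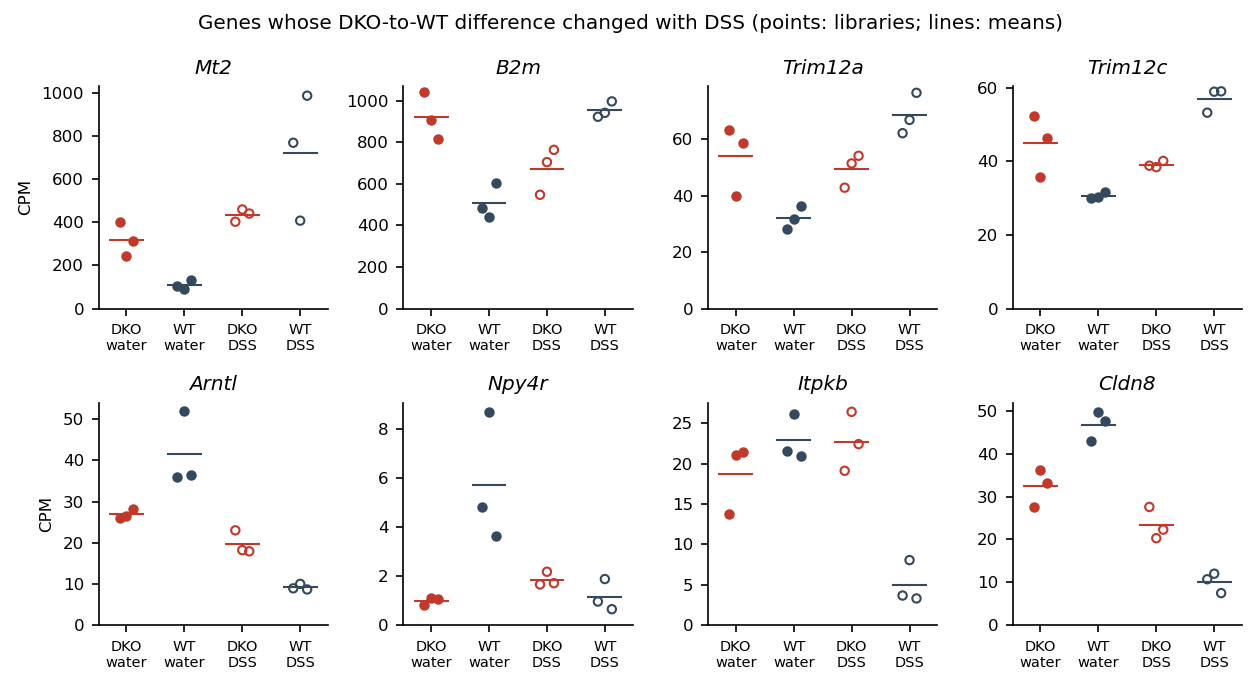
Levels in CPM (vertical axes, from 0) of 8 genes whose DKO to WT difference differed between water and DSS; filled points are libraries on water, open points libraries on DSS, lines are means. Mt2, B2m, Trim12a and Trim12c lie higher in DKO than in WT on water, and lower in mean on DSS; Arntl, Npy4r, Itpkb and Cldn8 lie lower in mean in DKO on water and higher on DSS.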

How the data were processed

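RNA was measured in 18 mouse colon libraries made with a stranded mRNA kit and read as paired-end reads, per the labels' protocols. The authors deposited whole-number read counts per gene, with no normalization, in 1 table. Per the submitters' processing notes, HISAT2 2.1.0 and StringTie 2.1.3b were among the tools named, with the builds GRCm38 and mm10. Those notes also list Trimmomatic 0.38, FastQC 0.11.7 and DESeq2 1.42.1 under R 4.3.2. Strand and multimapper settings are not given in the sources used here.

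Counts were tested with edgeR 4.0.16 in R 4.3.3 (quasi-likelihood, robust, TMM scaling, filterByExpr). All 18 libraries shared 1 fit with a mean per group, and p-values were adjusted over 18848 genes by Benjamini-Hochberg. Calls have an adjusted p under 0.05. CPM used TMM-scaled library totals. Single measures had exact two-sided permutation tests. The procedure was tested on simulated data. Alternatives were DESeq2 1.42.0, its size factors, limma 3.58.1 voom, no filter, fewer libraries, a replicate block, mitochondrial mRNAs removed and each library left out.

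Named were the targets, the called genes of largest change (up to 15 each way, at least 1 CPM, groups not overlapping, no gene models or pseudogenes), those within 5 Mb of a target, up to 4 called per list (otherwise up to 2 of smallest p), and interaction genes. A subset is printed. Members and lists were chosen with earlier results of these data known. Intervals and floors of 3 counts cover counting error only. Positions and promoters are from RefSeq GRCm38.p6.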

Additional observations from a re-analysis of the deposited data

Results flagged for a closer look

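The difference between DKO and WT colon was larger or smaller on DSS than on water at 11 genes by edgeR's interaction test, given as the log2 difference on DSS minus that on water. It was 1.72 for Arntl, 1.22 for Fer1l6, 2.45 for Itpkb, 1.74 for Cldn8, -2.31 for Mt2 and -1.36 for B2m (edgeR adjusted p = 0.0328 each). It was -1.95 for LOC115488509 (edgeR adjusted p = 0.038), 3.16 for Npy4r, -1.10 for Trim12c and 1.22 for Hr (edgeR adjusted p = 0.0382 each), and -1.22 for Trim12a (edgeR adjusted p = 0.0452).

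Itpkb, a kinase of inositol trisphosphate, averaged 18.7 CPM in DKO colon and 22.9 CPM in WT colon on water, and 22.6 CPM in DKO colon and 4.99 CPM in WT colon on DSS. Cldn8, a claudin of the distal colon, averaged 32.4 CPM in DKO colon and 46.9 CPM in WT colon on water, and 23.4 CPM in DKO colon and 10.1 CPM in WT colon on DSS. Trim12a averaged 54.0 CPM in DKO colon and 32.1 CPM in WT colon on water, and 49.4 CPM in DKO colon and 68.4 CPM in WT colon on DSS. Trim12a and Trim12c are near-identical copies whose reads can be shared.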

How the results depend on the processing

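The 117 genes called between DKO and WT on water became 178 with the replicate block, 783 with DESeq2, 213 with limma voom and 28 with only the 6 libraries compared in the fit, and 28 to 395 when each library was left out. Same-lettered DKO and WT libraries did not deviate together (correlations -0.0248, -0.0989 and 0.00122), and the main fit did not pair libraries by letter. Such correlations cannot exclude a batch shared by libraries of a letter. With DESeq2's size factors 106 were called, 54 higher and 52 lower against 70 and 47. On DSS, 48 calls became 149 with DESeq2, 459 with limma voom and 24 to 40 with a library left out. The 11 interaction calls became 35 with the replicate block, 492 with DESeq2, 235 with limma voom, 6 with only the groups compared, and 0 to 148 with a library left out. DKO against LAO1KO, with 15 calls, gave 48 with DESeq2, 32 with limma voom, 4 with only the groups compared and 7 to 12 with a library left out. LAO1KO against WT, with 10 calls, gave 298, 933, 4 and 5 to 118 in the same order. With a library left out, the Il4i1 difference was -1.47 to -1.11 CPM, Lao1 0.0733 to 0.227 CPM and the mitochondrial share 5.31 to 10.4 percentage points. Of the 862 tested list genes, 53 (without WT library C) to 117 (without WT library B) had the other sign of log2 fold change when a library was left out. Among the genes named by the rule, over the 6 such fits Usp18 ran from -2.51 to 0.27 (without WT library B), Cxcr5 from -0.01 (without DKO library C) to 1.13 and Ly6g from -7.71 to 2.69 (without WT library B), and Ly6g was 0.14 with limma voom. Of 30 genes named by size, 14 passed in all 6 fits without a library, 10 under every alternative, and 0 reversed under any. These 30 were picked for groups that did not overlap, so a reversal with a library left out could hardly occur. The cause of these shifts was not tested.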
